A study of Oryza sativa with 2 samples.

Results

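The 9 genes described here encode NAC proteins, a plant family of transcription factors, chosen for their reported roles in stress responses and leaf senescence: SNAC1, NAC6, NAC5, NAC3, NAC10, ONAC131, ONAC022, ONAC045 and NAP. They were chosen by a fixed list of locus identifiers, which found 9 of the 55986 gene models of the deposited table. Messenger RNA had been sequenced from 14-day seedlings of the rice cultivar CARI Dhan 7. The salinity seedlings came from seeds germinated in a mixture of 4 salts (chlorides of sodium and calcium, sulphates of sodium and magnesium) at an electrical conductivity of 6 dS/m, and the control seedlings from seeds germinated in distilled water. Each group had 1 library, so differences between the groups could not be set against replicate spread. Counting intervals, which describe these libraries alone, are given in place of p-values. The names SNAC1, NAC10, ONAC131, ONAC022 and NAP come from the list that defined the set, and the other 4 names were also found at the same place in the RefSeq name table.

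NAC proteins bind DNA through a conserved N-terminal domain and activate or repress their targets through a variable C-terminal part. In rice, SNAC1, NAC6 and NAC5 are induced by drought, high salinity and abscisic acid (ABA), the hormone of water deficit, and plants that overproduce them have been reported to tolerate salt or drought better. NAP is known as a promoter of leaf senescence that acts with ABA on the breakdown of chlorophyll.

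The salinity library held 15031328 counts and the control library 45359020. Of the values above 0, 100% of 26437 were even in the salinity library and 61.7% of 30451 in the control. Multiples of 4 made up 70.6% and 29.1% of them. For intervals, 4 counts of the salinity library or 2 of the control were treated as 1 read pair. That is an assumption which widens the intervals, and the values do not fix it, since 3 of the 9 NAC genes (NAC6, NAC5 and ONAC022) had salinity counts that are not multiples of 4. Higher and lower below mean that the 95% interval of the salinity over control ratio lay entirely beyond 2-fold, and such a gene is said to be called. Levels of 1 gene are given in CPM, counts per 1000000 after library scaling, and levels of different genes are compared in CPM per kilobase of exon. Both green-leaf markers found in the name table, CAB1R and CAB2R, were abundant, with a summed 20115 CPM in the salinity library and 15352 CPM in the control. The 4 root markers summed to 692 CPM and 612 CPM, with 1 called higher (the nitrate transporter gene NRT2.1) and 0 lower. Of 5 grain markers, 2 were lower, the alpha-amylase genes AMY1A and AMY3E. The 5 summed to 10.2 CPM in the salinity library, where AMY1A and the glutelin gene GLUA1 stood at 0 counts, and to 1427 CPM in the control, where none did. AMY1A alone made up 1390 CPM of the control sum, and AMY3D, GLUA1 and GLUA2 were not called. In whole seedlings, fewer cells of a type and less RNA per cell cannot be told apart, and the part of tissue make-up in the NAC values was not tested.

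In the salinity library, 3 of the 9 NAC genes were higher, NAC6 by 4.56-fold, NAC5 by 3.92-fold and SNAC1 by 2.13-fold. None was lower. The remaining 6 did not pass the size rule. Among them ONAC045, the only gene with a negative log2 ratio, had 6 salinity read pairs, which left little room for a lower call. Of the 26638 models tested, those whose counts in the 2 libraries summed to 10 or more, 7.97% were called higher and 5.17% lower. Among the 21087 models with at least 100 counts, which include all 9 NAC genes, 8.39% were called higher. All 1376 lower calls fell among these 21087 models. The 5.17% is thus taken over a set in which models below 100 counts gave no lower call. The median log2 ratio of the 9 genes was 1.09, against -0.08 for all tested models. Of the 9 log2 ratios, 8 were above 0, compared with 12449 of the 26638 models. With total-count scaling, 2 of 9 genes were higher (background 6.15%), and the median log2 ratio of all models moved by -0.25. The lower share of all calls was 39.3% with the scaling used here and 56.5% with total counts. With counts as deposited under the scaling used here it was 49.3%, so this share moves with the counting scale as well.

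**Figure D1:**
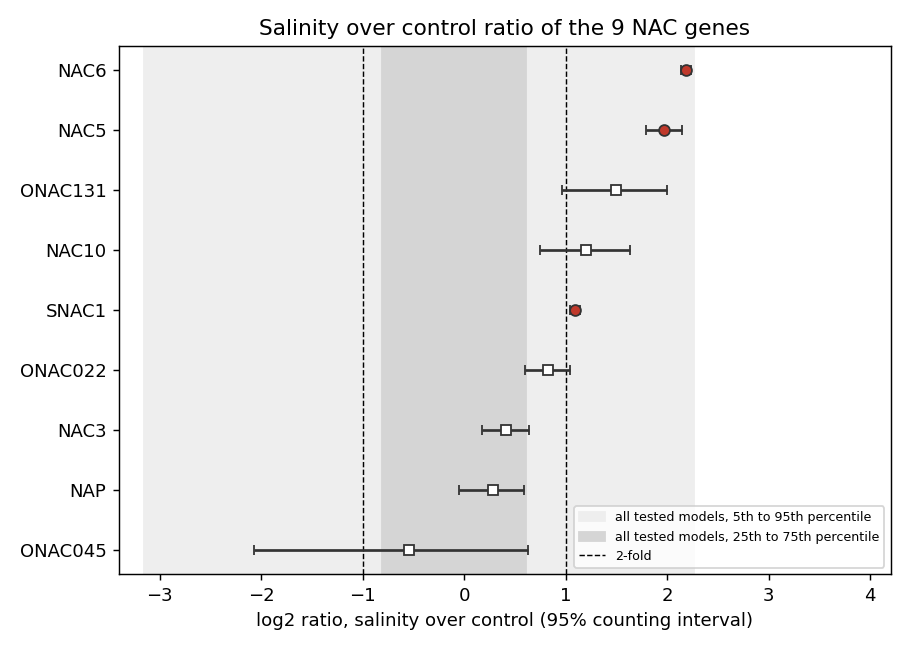
Points give the log2 ratio of salinity over control for the 9 NAC genes and bars the 95% counting interval. Filled red circles mark genes called higher, white squares genes that were not called, dashed lines 2-fold, and grey bands the middle of all tested gene models. NAC6, NAC5 and SNAC1 lie wholly beyond 2-fold, and the interval of ONAC131 starts just short of it, at 0.96.

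NAC6, also known as SNAC2, is a factor of abiotic stress responses that has been linked in rice to root structure and to nicotianamine synthesis. Its model (LOC_Os01g66120, chromosome 1, 38398517 to 38401533, minus strand) had 22062 counts in the salinity library and 17409 in the control. That is 1603 CPM (95% interval 1561 to 1646) against 351 CPM (344 to 359), and the log2 ratio was 2.19 (interval 2.14 to 2.24). NAC6 was the only one of the 9 genes whose interval lay beyond 4-fold, where 2.97% of all models were called higher.

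NAC5 belongs to the same subgroup as NAC6 and in rice is reported to bind the promoter of the LEA3 gene. It (LOC_Os11g08210, chromosome 11, 4299149 to 4301783, minus strand) had 1558 counts in the salinity library and 1431 in the control. Its level was 113 CPM (102 to 125) in the salinity library and 28.9 CPM (26.8 to 31.1) in the control, a log2 ratio of 1.97 (interval 1.79 to 2.15). The salinity to control ratio of NAC6 exceeded that of NAC5 by 1.16-fold (approximate 95% interval 1.02 to 1.32), a comparison within libraries into which no library scaling enters.

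SNAC1 is known in rice for its activity in guard cells, where it favours stomatal closure. It (LOC_Os03g60080, chromosome 3, 34166099 to 34167546, plus strand) had 16732 counts in the salinity library and 28275 in the control, which is 1216 CPM (1179 to 1253) against 571 CPM (561 to 580). The log2 ratio was 1.09 (interval 1.04 to 1.14). Its interval is narrow but its lower end lies close to 2-fold. Under total-count scaling (log2 ratio 0.84) and upper-quartile factors (1.05) SNAC1 was not called. Relative to SNAC1 in the same library, NAC6 changed by 2.14-fold (interval 2.04 to 2.25) and NAC5 by 1.84-fold (1.62 to 2.09).

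NAC3, a relative of NAC6 and SNAC1, is the single-exon member of the set. It (LOC_Os07g12340, chromosome 7, 6967999 to 6969311, plus strand) had 752 salinity and 2033 control counts, or 54.6 CPM (47.1 to 63.0) against 41.0 CPM (38.6 to 43.6). The log2 ratio of 0.41 (interval 0.18 to 0.64) did not pass the size rule. Relative to NAC3, NAC6 changed by 3.43-fold (interval 2.92 to 4.02), so these relatives differed in their ratio beyond counting error.

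ONAC022 is reported to raise drought and salt tolerance when overproduced in rice. It (LOC_Os03g04070, chromosome 3, 1862352 to 1864245, minus strand) had 834 salinity and 1692 control counts, or 60.6 CPM (52.6 to 69.4) against 34.2 CPM (31.9 to 36.5). Its log2 ratio of 0.83 (interval 0.60 to 1.05) lies above no change and reaches just past 2-fold, so it was not called. NAP, the senescence factor (LOC_Os03g21060, chromosome 3, 11973970 to 11976426, minus strand), had 388 salinity and 1151 control counts, or 28.2 CPM (22.9 to 34.4) against 23.2 CPM (21.4 to 25.2). Its log2 ratio was 0.28, and its interval of -0.05 to 0.59 includes no change and lies within 2-fold.

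The remaining 3 genes lie near the ends of chromosomes 11 and 12, which in rice carry a segment duplicated between these chromosomes. NAC10 is reported to increase drought tolerance when driven in roots, and ONAC131 and NAC10 are both reported to act in resistance to rice blast. NAC10 (LOC_Os11g03300, chromosome 11, 1233928 to 1236052, plus strand) had 232 salinity and 364 control counts, or 16.9 CPM (12.8 to 21.8) against 7.35 CPM (6.32 to 8.50). ONAC131 (LOC_Os12g03040, chromosome 12, 1139026 to 1141362, plus strand) had 180 and 230 counts, or 13.1 CPM (9.54 to 17.5) in the salinity library against 4.64 CPM (3.83 to 5.57) in the control. Both point estimates lie beyond 2-fold, at log2 ratios of 1.20 (interval 0.75 to 1.63) and 1.49 (0.96 to 2.003), but neither interval does. Summed as 1 gene, the pair had a log2 ratio of 1.32 (0.98 to 1.65), which was not called either. With counts as deposited, which narrow the intervals, ONAC131 passed as the fourth of 9 (background 10.6%), and likewise with 2 counts per read pair in both libraries (background 8.91%).

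ONAC045 (LOC_Os11g03370, chromosome 11, 1269314 to 1271303, plus strand), reported to raise drought and salt tolerance when overproduced, begins 33261 bases after the end of NAC10. It had 24 salinity and 128 control counts, or 1.74 CPM (0.64 to 3.79) against 2.58 CPM (1.99 to 3.30). Its log2 ratio of -0.54 was the only negative one of the 9, but the interval of -2.07 to 0.63 rests on 6 salinity read pairs, and no difference was detectable at this depth. On chromosome 12 the NAC gene ONAC300 (LOC_Os12g03050) begins 5632 bases after ONAC131, in the same order, and had 48 salinity and 258 control counts, a log2 ratio of -0.57 (interval -1.57 to 0.28). Within each library, NAC10 relative to ONAC045 changed by 3.40-fold (approximate interval 1.40 to 8.26), and ONAC131 relative to ONAC300 by 4.21-fold (2.12 to 8.34). These were chosen for comparison after their values were seen. Reads of near-identical copies may have been split between such genes or lost, so all 4 values are uncertain to that extent.

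Per kilobase of exon, SNAC1 and NAC6 stood far above the other 7 genes in both libraries. They made up 90.4% of the summed level of the 9 genes in the salinity library and 86.5% in the control. SNAC1 was highest in both, at 922 CPM per kilobase in the salinity library and 433 in the control, which is above 99.7% and 99.5% of all tested models. NAC6 stood at 743 CPM per kilobase in the salinity library and 163 in the control. The NAC6 level was 0.81 of the SNAC1 level in the salinity library and 0.38 in the control.

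The order of the next genes differed between libraries. In the salinity library NAC5 took place 3 at 56.6 CPM per kilobase, followed by ONAC022 at 46.6 and NAC3 at 41.6, and neighbours in this order had overlapping intervals. In the control NAC3 took place 3 at 31.3, followed by ONAC022 at 26.3 and NAC5 at 14.5, and their intervals did not overlap. NAP was sixth in both libraries, at 15.3 and 12.6 CPM per kilobase, with an interval that overlapped that of NAC10 in the salinity library and that of NAC5 in the control. NAC10, ONAC131 and ONAC045 were the lowest 3 in both, in this order, from 9.60 down to 1.03 CPM per kilobase in the salinity library and from 4.19 down to 1.53 in the control. The intervals of NAC10 and ONAC131 overlapped in the salinity library and were apart in the control.

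**Figure D2:**
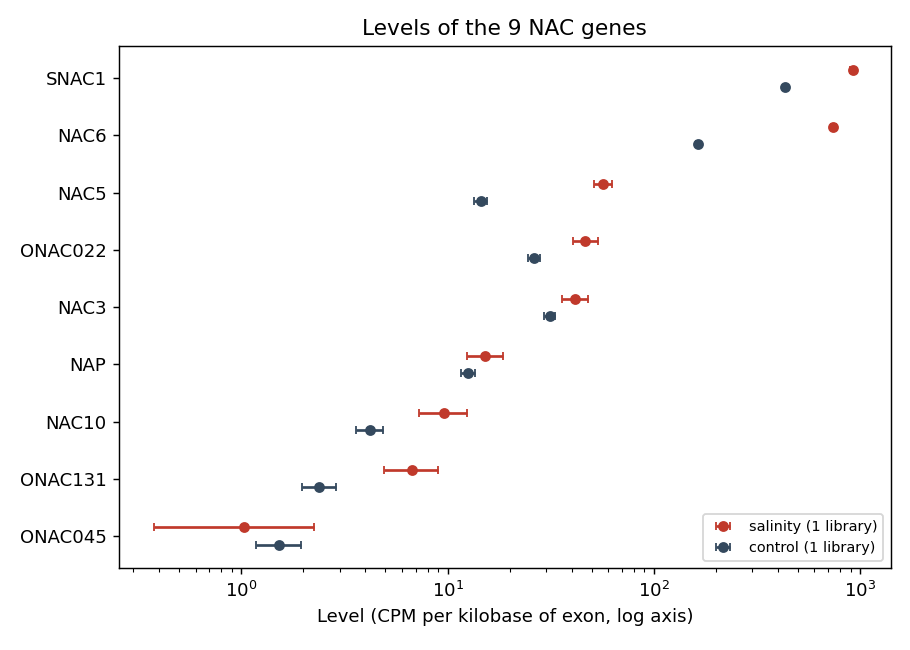
Each row gives 1 NAC gene, with its level in the salinity library (red, upper point) and the control library (dark, lower point) in CPM per kilobase of exon on a log axis and exact Poisson 95% intervals. SNAC1 and NAC6 lead in both libraries, and NAC5 is at place 3 in the salinity library and place 5 in the control.

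Genes reported as acting with these factors were described from lists that were written with earlier results of these data known. NYC1, SGR and RCCR1 encode proteins of chlorophyll breakdown, and NAP is reported to bind their promoters in rice. Of these 3, 2 were higher, against 7.97% of all tested models. Also listed but left out were 2 genes whose names were not in the name table and 1 whose span differed there. NYC1, which encodes a chlorophyll b reductase, had 2228 salinity and 1683 control counts, or 162 CPM against 34.0 CPM, a log2 ratio of 2.25 (interval 2.095 to 2.41). RCCR1, whose product acts on a red chlorophyll catabolite, had 292 and 340 counts, or 21.2 CPM in the salinity library against 6.86 CPM in the control, a log2 ratio of 1.63 (1.21 to 2.03). Under total-count scaling, or with the control reduced to the read pairs of the salinity library, RCCR1 was not called. SGR, the stay-green gene, was not called at 1.09 (0.81 to 1.36). The NAP ratio itself, 0.28, was below all 3.

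Of 5 further genes reported as targets of these NAC factors, or as raised in plants that overproduce one, 3 were higher and 2 lower. Over all tested models, the shares were 7.97% and 5.17%. Another 2 listed genes, SRO1c and PP18, were left out because their names were not in the name table. That rule was not applied to the 9 members. LEA3-1, a late embryogenesis abundant protein gene tied to NAC5 and ONAC022, was at 6647 CPM in the salinity library and 61.8 CPM in the control, a log2 ratio of 6.75 (6.67 to 6.82). RAB16A, a dehydrin gene tied to ONAC022 and listed as RAB21 in the name table, was at 5.56 (5.50 to 5.62), and the proline synthesis gene P5CS1 at 1.67 (1.56 to 1.79). The nicotianamine synthase genes NAS1 and NAS2, reported to be raised by NAC6 in rice, went the other way to NAC6, at -3.19 (-3.48 to -2.91) and -2.07 (-2.27 to -1.88). NAS1 had 412 counts in the salinity library and 13510 in the control.

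Among 3 listed other NAC genes found in the name table, none was higher and 1 was lower. Over all tested models, the shares called were 7.97% and 5.17%. Another 16 listed loci were left out because their names were not in that table, a rule not applied to the 9 members. NAC4, a relative of NAC3 reported in rice as a regulator of cell death in defence, had 156 salinity and 1566 control counts, or 11.3 CPM against 31.6 CPM. Its log2 ratio of -1.48 (interval -1.98 to -1.02) ends close to 2-fold, and the call was lost with DESeq2 size factors, with at least 50 counts per model and with the control library thinned. Relative to NAC4 in the same library, NAC6 changed by 12.7-fold (interval 9.21 to 17.6). NAC6 has the highest ratio of the 9 members and NAC4 the lowest of these 3, so a large value follows from that choice. NAC2, at 0.36 (0.08 to 0.64), and ONAC300 were not called. Of 3 further NAC genes in the name table but in no list, 1 was higher, NAC7 at 2.20 (1.52 to 2.87).

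**Figure D3:**
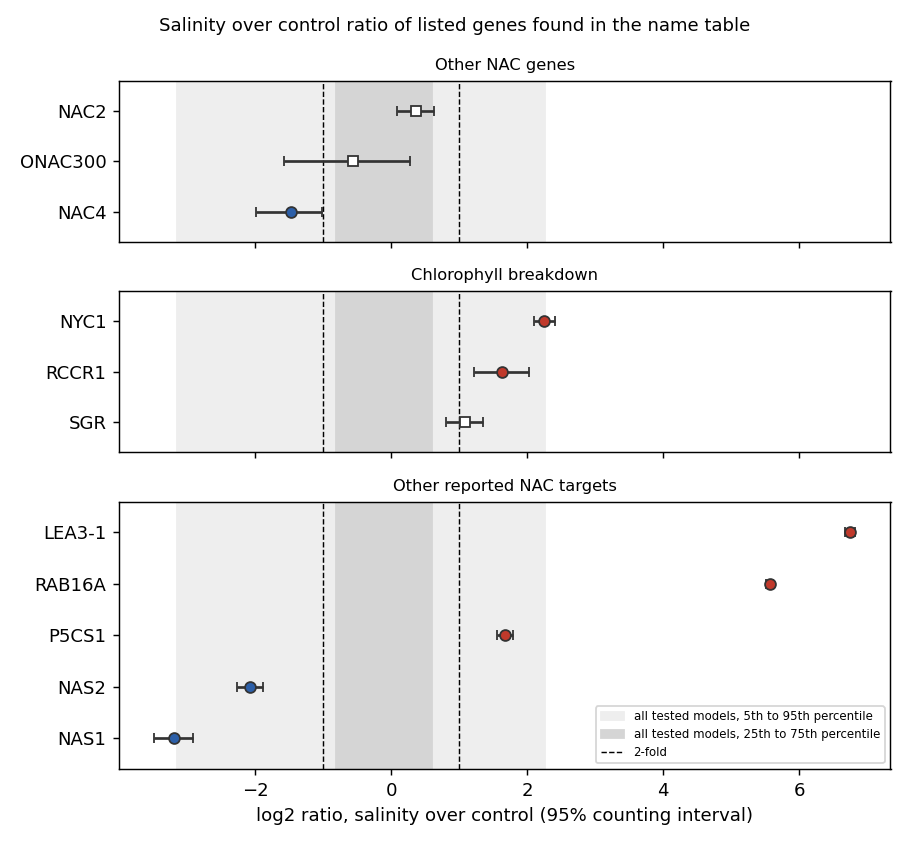
Points give the log2 ratio of salinity over control and bars the 95% counting interval for 3 other NAC genes, 3 chlorophyll breakdown genes and 5 further reported targets. Red marks genes called higher, blue genes called lower and white genes not called. LEA3-1 and RAB16A lie at 6.75 and 5.56, and NAS1 and NAS2 at -3.19 and -2.07.

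No NAC gene of the set shared exon bases with another model of the table. The 2 gene models on each side of each gene gave 36 neighbours, of which 21 had enough counts to be tested and 15 did not. Of the 21, 2 were higher, 2 lower and 17 were not called, with a median log2 ratio of 0.15. Over all tested models, 7.97% were higher and 5.17% lower. The neighbours of NAC5 say little, as 3 were not tested and the other had 6 salinity and 24 control counts. Next to SNAC1, LOC_Os03g60090 lies 254 bases beyond its end on the other strand and had 2196 salinity and 12816 control counts, a log2 ratio of -0.70 (interval -0.83 to -0.57). The model after that, LOC_Os03g60100, was lower at -1.21 (-1.40 to -1.03).

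ONAC022, itself not called, had the other 3 called neighbours. LOC_Os03g04080 had 952 salinity and 58 control counts, a log2 ratio of 5.87 (interval 5.32 to 6.49), and LOC_Os03g04100 was higher at 2.20 (1.92 to 2.48). On its other side LOC_Os03g04060, 565 bases away on the opposite strand, had 20 and 637 counts, and was lower in the salinity library at -3.11 (-4.78 to -1.91). The files do not name these models.

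**Figure D4:**
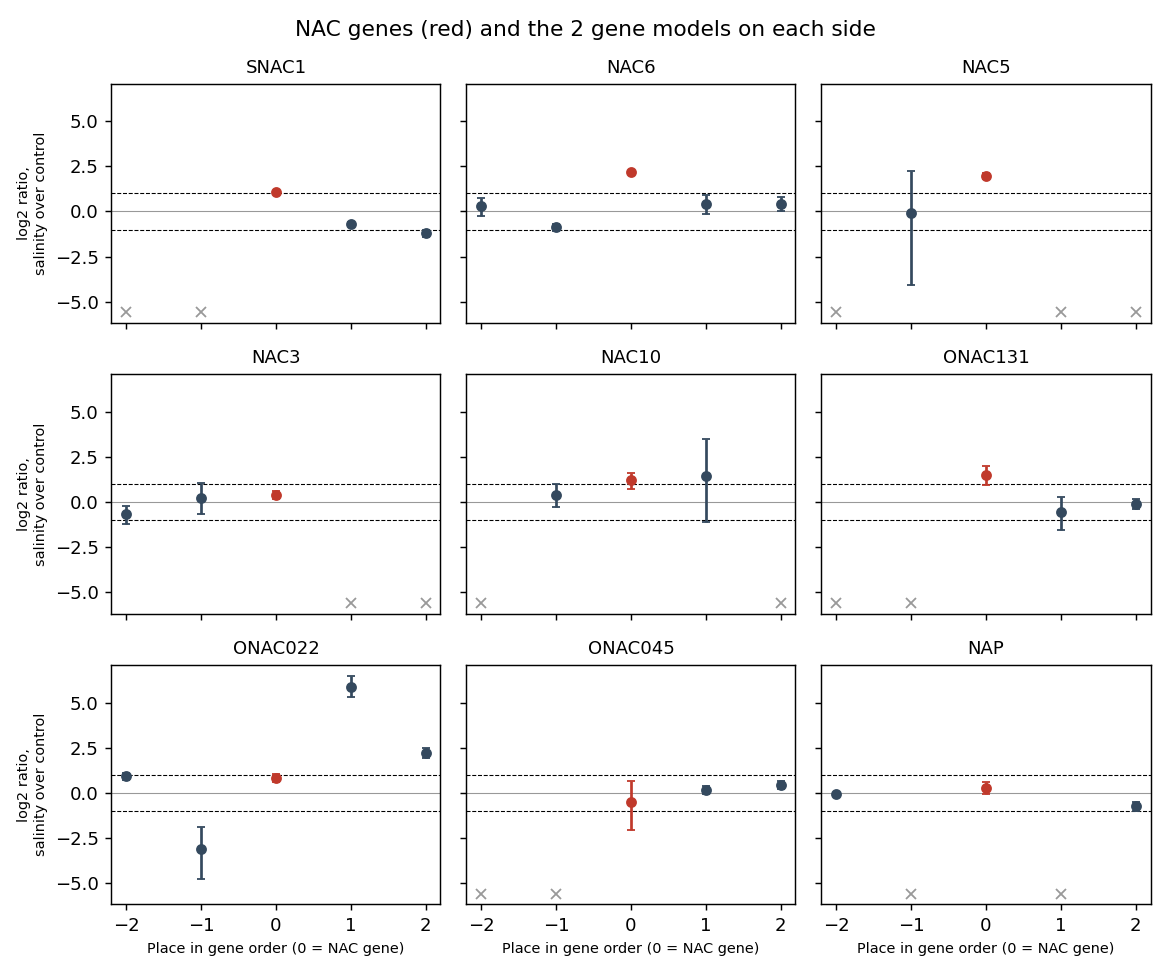
Each panel shows 1 NAC gene (red, place 0) and the 2 gene models on each side (dark, places -2 to 2 in gene order), with the log2 ratio of salinity over control and its 95% counting interval. Dashed lines mark 2-fold, and crosses at the bottom mark models with too few counts for a ratio. The points of NAC6, NAC5 and SNAC1, and of the uncalled ONAC131, NAC3 and NAP, lie above those of their tested neighbours. The only tested neighbour of NAC5 has a wide interval, -4.09 to 2.24. NAC10 lies between its tested neighbours and ONAC045 below them, while ONAC022 at 0.83 lies between neighbours at -3.11 and 5.87. Intervals of NAC3, NAP, NAC10 and ONAC045 overlap that of a tested neighbour, so their places are not set apart beyond counting error.

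When the size rule was set at 1.5-fold, 6 of the 9 genes were higher, the 3 above with ONAC131, NAC10 and ONAC022, against 12.8% of all models. NAC3, NAP and ONAC045 were not called under any of 10 other choices of scaling, filter, counting scale, threshold, depth or prior count.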

How the data were processed

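FastQC, MultiQC, the aligner STAR, the counter featureCounts and DESeq2 are named in the submitters' processing notes. Not given in the sources used here are versions, genome build, annotation, strand use and the handling of multiply mapped reads. The authors deposited whole-number counts per gene model with exon positions and exon length, and coordinates are those of that table. Per the labels' protocols, libraries were prepared from poly(A) RNA with NEBNext Ultra II reagents.

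Library sizes were scaled with TMM factors (edgeR 4.0.16, R 4.3.3) over the models whose summed counts reached 10. Log2 ratios use a prior count of 0.5. Ratio intervals are exact conditional binomial (Clopper-Pearson) intervals, level intervals are exact Poisson, and ratios between genes within libraries have approximate intervals on the log scale. All use the read-pair scale of 4 salinity or 2 control counts, an assumption that neither column follows throughout, since 11654 control values are odd and 29.4% of salinity values above 0 are not multiples of 4. Reads amplified by PCR carry no molecular identifiers here and are not independent, so every interval is for counting error alone. Depth was 3.76 pairs in units of 1e6 in the salinity library and 22.7 in the control. The procedure was also run on simulated read pairs, drawn with counting error alone and on this same read-pair scale. That run cannot test the scale itself or any spread beyond counting error. Other steps used scipy 1.17.1, pandas 2.3.3 and numpy 2.4.6 in Python 3.11.15, with matplotlib 3.10.9 for figures and DESeq2 1.42.0 for alternative size factors.

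The members, lists and rules were chosen with earlier results of these data known. Named genes are the 9 members and every listed gene found in the RefSeq name table (assembly ASM3414082v1) on the same chromosome, in the same order and within 25% of the span. Of 19 other NAC loci 3 were found, of 6 chlorophyll breakdown genes 3 and of 7 further targets 5, and the rest were not used here. With 2 libraries each gene has 1 ratio, so likeness of pattern between genes was not measured. Of the neighbours, those named were chosen after their values were seen. Sequences and promoter motifs were not analysed here.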

Additional observations from a re-analysis of the deposited data

How the results depend on the processing

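Under 10 other choices of processing, the count of 3 higher NAC genes became 6 with an interval beyond 1.5-fold and 1 with an interval beyond 4-fold, by construction. It stayed between 2 and 4 elsewhere. The share of all tested models called higher was 12.8% at 1.5-fold, 2.97% at 4-fold and 6.15% to 10.6% elsewhere. No log2 ratio of the 9 genes changed sign. Across 111 comparisons of a gene with an alternative, 100 kept the call, 7 gained one and 4 lost one. The lost calls were SNAC1 with total counts, upper-quartile factors and 4-fold, and NAC5 with 4-fold. ONAC131 gained the call in 5 of the 7, with at least 50 counts (1.54), with counts as deposited, with 2 counts per read pair in both libraries, at 1.5-fold and relative to the median of all models (1.58). The median of the 9 was 0.84 with total counts and 1.01 with the control thinned. Over all models, 2124 were higher and 1376 lower; these became 3408 and 2803 at 1.5-fold and 792 and 398 at 4-fold, and 2755 were lower with counts as deposited and 2127 with total counts. The 2 higher chlorophyll breakdown genes became 1 with total counts, with the control thinned and at 4-fold, and 3 at 1.5-fold. The 1 lower of 3 other NAC genes became 0 with DESeq2 size factors, with at least 50 counts, with the control thinned and at 4-fold, and with 3 further NAC genes there was 1 higher. Where not by construction, the cause was not tested. The scale of 2 counts per read pair in both libraries, the ratios relative to the median, the 3 further NAC genes and the sum of ONAC045 with ONAC300 were chosen after seeing the data. No replicate could be left out, as each group has 1 library. No paired analysis was possible because each group has 1 library. Depth limits ONAC045, with 6 salinity read pairs, and, less so, ONAC131 with 45 and NAC10 with 58.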

Other observations

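The name table holds 3 further NAC genes that were in no list, NAC7, NAC8 and ONAC010, which were looked up after the values of the listed genes had been seen. NAC7, a factor of the group known in plants for xylem and secondary wall formation, had 128 salinity and 100 control counts, or 9.30 CPM against 2.02 CPM, and was higher at a log2 ratio of 2.20 (interval 1.52 to 2.87). That is close to the 2.19 of NAC6 at a far lower level. NAC8 was at 128 CPM in the salinity library and 107 CPM in the control, a log2 ratio of 0.25 (0.10 to 0.39), and ONAC010 was at 0.59 (-0.30 to 1.37). Neither was called.

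Of the 9 NAC genes, 5 had an odd count in the control library and none in the salinity library, as in the whole table.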
